A study of Mus musculus with 10 samples.

Results

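The ovary libraries described here are the 3 with the highest and the 3 with the lowest summed level of stromal, theca and blood vessel transcripts, 6 of the 10 libraries in the series. Each library was scored on 14 marker genes: the value of each gene minus its mean over the 10 libraries, averaged over the genes. The 3 highest libraries are called stroma-rich and the 3 lowest stroma-poor, whatever their genotype. The libraries were thus chosen by the measured values of these genes, so differences between the sides are descriptions, and no test was made between them. All libraries came from RNA of whole ovaries of 3-week-old mice of the C57/Bl6/N;129SvEv7 strain that had received no hormone stimulation, 5 labelled control and 5 labelled Uba3 cKO. Uba3 makes the catalytic part of the NEDD8-activating enzyme, and the labels name neither the driver of the knockout nor the cells in which it acts. Nothing in the labels beyond the numbering says that the libraries came from separate animals, so the spread between them may be in part technical. The mean Uba3 level was 10.12 for both labels (control SD 0.18 and Uba3 cKO SD 0.069, n = 5 each), so it gave no check of the label.

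Follicles of the mouse ovary are embedded in a stroma of fibroblasts, smooth muscle and vessels, which deposits collagens, laminins and other matrix. Theca cells are recruited from this stroma to the outside of growing follicles under Hedgehog signals from granulosa cells, and carry the vessels of the follicle, since the granulosa layer itself has none. In whole-organ RNA, fewer cells of a type and less RNA per cell cannot be told apart. The values are log2 levels as the authors deposited them, and their sequencing depth is unknown. Library medians lay between 6.29 and 6.44. They did not overlap between the sides, from 6.37 to 6.44 in stroma-rich and from 6.29 to 6.34 in stroma-poor libraries.

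The score put Uba3 cKO replicate 4 highest (0.45), then control replicate 1 (0.39) and Uba3 cKO replicate 2 (0.19). Uba3 cKO replicate 5 was lowest (-0.45), below control replicate 5 (-0.32) and Uba3 cKO replicate 3 (-0.22). Each side therefore held 1 control library and 2 libraries labelled Uba3 cKO. The libraries just outside were Uba3 cKO replicate 1 at 0.03 on the upper side and control replicate 4 at -0.04 on the lower, with control replicates 2 and 3 between them at -0.03 and 0.00. In the lists of values that follow, stroma-rich libraries stand in the order Uba3 cKO replicate 4, control replicate 1, Uba3 cKO replicate 2, and stroma-poor libraries in the order Uba3 cKO replicate 3, control replicate 5, Uba3 cKO replicate 5.

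**Figure D1:**
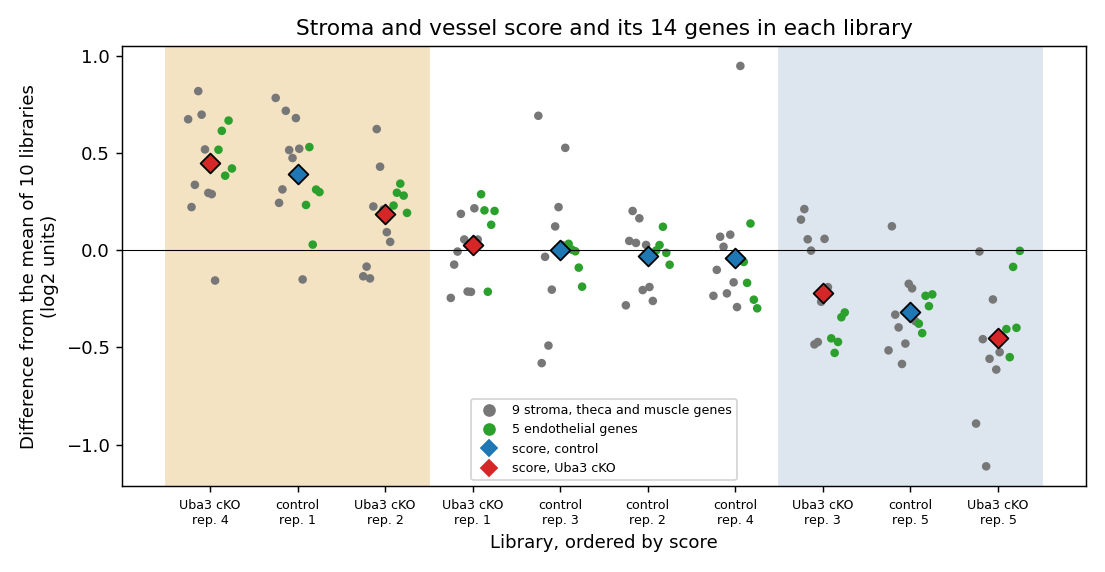
Difference of each of the 14 score genes from its mean over 10 libraries (small points, log2 units) and the score, their mean (diamonds, coloured by labelled genotype), with libraries ordered by score. The 3 stroma-rich libraries (left band) score between 0.19 and 0.45 and the 3 stroma-poor libraries (right band) between -0.45 and -0.22, with both genotypes in each band.

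The 14 genes that made the score were not equally divided between the sides. All 14 had the higher mean in the stroma-rich libraries, and 11 did not overlap between the sides. Col1a1, a chain of type I collagen, stood at 12.17, 11.99 and 12.10 in the stroma-rich libraries and 10.99, 10.89 and 10.92 in the stroma-poor. The 3 values of each side lay close together, about 1.15 log2 units apart between sides. Cdh5, the cadherin of endothelial junctions, stood at 9.01, 8.92 and 8.69 against 7.86, 7.97 and 7.84. Hhip, which binds Hedgehog ligands and is induced by them, stood at 8.25, 8.15 and 7.66 against 7.43, 7.04 and 6.32. Its stroma-poor values were wide apart, and the lowest was that of Uba3 cKO replicate 5. Ptch1, the Hedgehog receptor, did not separate the sides, with 11.88, 11.90 and 11.58 against 11.87, 11.78 and 11.65. Des, the intermediate filament of muscle, differed by 0.25 and was highest in libraries of neither side, at 8.03 in control replicate 4 and 7.61 in control replicate 3. Cyp17a1, the theca enzyme of androgen synthesis, stood at 7.74, 7.85 and 6.93 against 7.22, 6.55 and 6.18, and overlapped. Its value of 7.76 in control replicate 3, a library of neither side, was as high as those of the 2 highest libraries.

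The stromal and the endothelial genes chose the same libraries. With the score taken over only the 9 stromal, theca and muscle genes, or over only the 5 endothelial genes (Pecam1, Cdh5, Kdr, Flt1 and Tek), the 3 highest and the 3 lowest libraries were the same 6. Between these sides 5 of 5 endothelial and 6 of 9 stromal genes did not overlap. Since these are the genes that chose the libraries, the counts describe the choice and support nothing further. The order within the stroma-poor side differed: the endothelial score was lowest in Uba3 cKO replicate 3 (-0.42) and the stromal score in Uba3 cKO replicate 5 (-0.54).

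Genotype was not used to choose the libraries, so the labelled groups could be tested. Scores of the 5 controls ran from -0.32 to 0.39 (mean 0.0015, SD 0.25), and those of the 5 Uba3 cKO libraries from -0.45 to 0.45 (mean -0.0015, SD 0.35). In limma's comparison over 15629 genes, 0 (0%) were called at an adjusted p of 0.05, and 280 (1.79%) had an unadjusted p under 0.05. None of the 14 score genes had an unadjusted p under 0.05, with 9 means higher under the Uba3 cKO label and 5 lower. Their differences ran from -0.28 for Des (95% interval -0.76 to 0.21) to 0.20 for Tek (95% interval -0.12 to 0.51). With the score as a covariate, 0 genes were called and 340 had an unadjusted p under 0.05.

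Across all genes the difference between the sides was lopsided. A gene was counted as higher where all 3 stroma-rich values lay above all 3 stroma-poor values and the means differed by at least 0.5 log2 units (1.41-fold), and as lower in the mirrored case. With the 14 score genes set aside, 283 of 15615 genes (1.81%) were higher in the stroma-rich libraries and 27 (0.173%) were lower. At a difference of at least 1, 12 were higher (0.0768%) and 1 was lower (0.0064%). Genes without overlap, whatever their size, were nearly even, 1617 higher (10.4%) and 1524 lower (9.76%). The median difference over all genes was -0.01. The libraries of neither side had a mean between those of the sides for 276 of the 283 higher genes (97.5%) and for 21 of the 27 lower genes, against 31.4% of all tested genes. Genes counted for a gap between the sides leave room for such a mean, so nothing is read from these counts. Without control replicate 1 the counts were 450 higher and 136 lower, and of the genes counted with all libraries 258 and 27 were still counted.

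**Figure D2:**
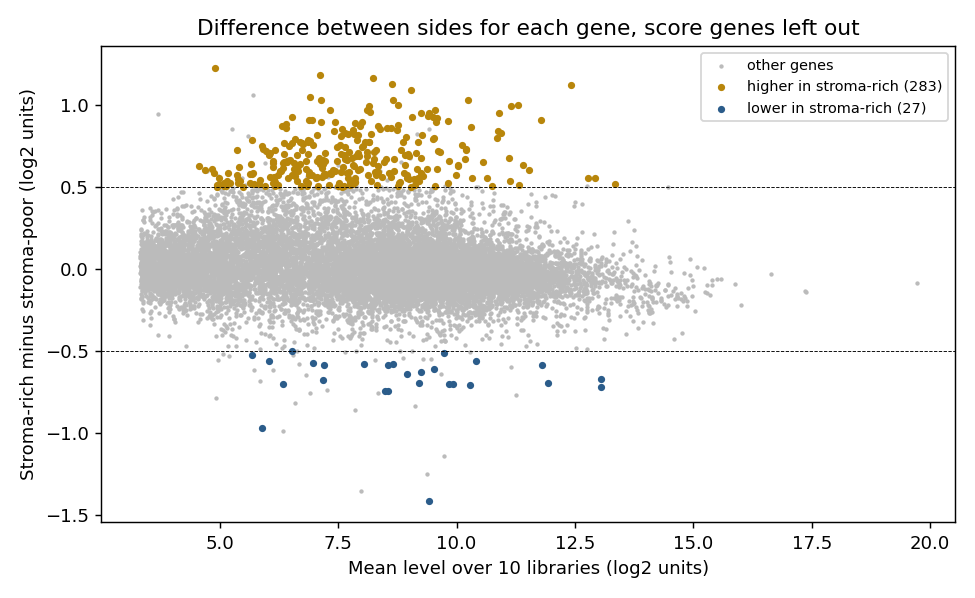
Mean level of each gene over 10 libraries (x, log2 units) against the stroma-rich minus stroma-poor difference (y, log2 units), with the 14 score genes left out. The 283 higher genes (gold) far outnumber the 27 lower genes (blue), and dashed lines mark a difference of 0.5.

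A list of fibril-forming and fibril-associated collagens, type VI collagens and Col15a1 stood apart more often than any other list described here. Of 11 tested members beside the score genes, 8 were higher in the stroma-rich libraries, against 1.81% of all genes. The median difference was 0.68 against -0.01. Among the 8 were Col6a1, Col6a2, Col6a3 and Col15a1, which do not belong to the fibril-forming or fibril-associated classes. Col1a2, the partner chain of Col1a1 in type I collagen, stood at 13.04, 12.91 and 13.02 in the stroma-rich libraries and 11.996, 11.74 and 11.88 in the stroma-poor. This is a difference of 1.12 (2.18-fold), and the 4 other libraries lay between the sides. Col15a1, a collagen attached to basement membranes, stood at 9.01, 9.01 and 8.43 against 7.66, 7.88 and 7.40. Uba3 cKO replicate 2 was the lowest of the stroma-rich libraries for this gene, and the highest library of neither side, control replicate 4 at 8.45, was level with it. Col5a1, which starts the assembly of type I fibrils, stood at 10.43, 10.32 and 10.31 against 9.495, 9.39 and 9.46. Taken by symbol, a choice made after values were seen, 16 of 39 tested collagen genes were higher and none was lower.

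Basement membrane genes were higher in 7 of 14 tested members, against 1.81% of all genes, with a median difference of 0.47. Lama2, a laminin chain of muscle and stroma, stood at 9.66, 9.80 and 9.44 against 8.49, 8.67 and 8.46. Nid1, which links laminin to type IV collagen, stood at 10.83, 10.84 and 10.76 against 9.94, 9.90 and 9.99. For both genes the 3 libraries of a side lay closer to each other than to any library of the other side. Col18a1, the collagen from which endostatin is cut, stood at 11.09, 10.22 and 10.78 against 9.78, 9.83 and 9.39. Control replicate 1 was the lowest stroma-rich library for it, below 2 libraries of neither side at 10.60 and 10.75.

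The type IV collagens, which form the sheet of basement membranes, are encoded as pairs of genes with adjoining starts, and the pairs differed. Col4a1 stood at 12.33, 12.45 and 12.08 against 11.51, 11.31 and 11.32, and Col4a2 at 11.40, 11.57 and 11.21 against 10.66, 10.54 and 10.48. Both were higher on the stroma-rich side, by 0.91 and 0.83. Col4a4 stood at 10.09, 10.06 and 9.99 against 9.26, 9.17 and 9.31, and Col4a3 at 8.23, 7.99 and 8.03 against 7.31, 7.48 and 7.43. This second pair was also set apart, by 0.80 and 0.68. In the third pair, Col4a5 differed by 0.11 (11.06, 11.37 and 11.02 against 11.15, 10.95 and 11.03) and Col4a6 by 0.05 (9.16, 9.58 and 9.24 against 9.33, 9.19 and 9.31). The sides overlapped for both genes of the third pair, and without control replicate 1 their differences were -0.0039 and -0.08. Whether these differences themselves differ was not tested.

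The promoters shown are of 5 matrix and muscle genes that were all higher on the stroma-rich side. Each gene was picked together with a motif found in its window, so the 5 do not tell how common a motif is. Each window runs from 250 bases before to 50 bases after a start in RefSeq (GRCm38.p6), which is an older build than the GRCm39 of the submitters' processing notes. Col4a2 (chr8:11312555-11312854, plus strand) and Col4a1 (chr8:11312777-11313076, minus strand) are read away from each other, and their windows share 78 bases. Capitals mark the GC box GGGCGG on either strand in these first windows.
Col4a2: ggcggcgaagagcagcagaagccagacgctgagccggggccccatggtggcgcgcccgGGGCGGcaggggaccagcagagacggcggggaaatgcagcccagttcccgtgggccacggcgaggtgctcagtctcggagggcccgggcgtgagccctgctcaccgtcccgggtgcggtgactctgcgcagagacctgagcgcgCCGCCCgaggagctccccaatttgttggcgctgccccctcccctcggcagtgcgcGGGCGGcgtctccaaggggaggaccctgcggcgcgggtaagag
Col4a1: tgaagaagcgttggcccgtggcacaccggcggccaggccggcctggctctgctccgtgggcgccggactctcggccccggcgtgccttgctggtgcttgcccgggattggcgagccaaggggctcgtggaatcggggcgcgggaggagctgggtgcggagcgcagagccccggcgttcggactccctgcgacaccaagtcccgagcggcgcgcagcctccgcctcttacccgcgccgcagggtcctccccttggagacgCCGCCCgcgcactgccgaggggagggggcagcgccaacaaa
In the Col1a2 window (chr6:4505368-4505667, plus strand) capitals mark CCAAT on either strand. In those of Myl9 (chr2:156775214-156775513, plus strand), a myosin light chain of smooth muscle, and Lama2 (chr10:27616893-27617192, minus strand) capitals mark the CArG box, the motif of serum response factor.
Col1a2: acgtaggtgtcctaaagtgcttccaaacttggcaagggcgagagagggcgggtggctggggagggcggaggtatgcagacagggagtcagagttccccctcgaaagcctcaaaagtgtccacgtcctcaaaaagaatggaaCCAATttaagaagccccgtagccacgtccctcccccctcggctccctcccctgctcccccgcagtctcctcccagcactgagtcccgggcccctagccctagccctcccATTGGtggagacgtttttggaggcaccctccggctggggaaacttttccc
Myl9: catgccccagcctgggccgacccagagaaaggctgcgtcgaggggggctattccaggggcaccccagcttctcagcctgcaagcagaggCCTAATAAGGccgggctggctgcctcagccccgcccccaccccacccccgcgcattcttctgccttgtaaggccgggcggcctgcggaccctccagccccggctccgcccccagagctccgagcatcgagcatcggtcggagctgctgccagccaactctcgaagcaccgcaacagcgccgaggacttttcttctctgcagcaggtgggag
Lama2: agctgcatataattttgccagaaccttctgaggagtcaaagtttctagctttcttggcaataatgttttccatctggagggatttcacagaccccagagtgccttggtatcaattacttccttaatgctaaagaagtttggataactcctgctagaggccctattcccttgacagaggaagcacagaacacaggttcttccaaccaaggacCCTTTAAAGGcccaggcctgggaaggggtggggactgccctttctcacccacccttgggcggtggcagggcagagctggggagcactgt

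The same letters are common in promoters. Windows were found for 181 of the 283 higher genes (219 windows) and for 11387 of all tested genes (14555 windows), and both strands were searched. GGGCGG was in 56.6% of the windows of higher genes and in 60.05% of all windows, and CCAAT in 32.4% and 37.5%. The CArG box was in 4 of 219 windows (1.83%), those of Lama2, Myl9, Rhoj and Rnd3, and in 1.27% of all. The ETS motif CCGGAAGT was in 0 of 219 windows of higher genes and in 1055 of all 14555 (7.25%). The GLI motif GACCACCCA was in 0 of 219 and in 29 of all (0.199%), and the SF-1 motif CAAGGTCA in 1 of 219 (0.457%) and in 1.10% of all. A match is a run of letters in the window, and its absence says nothing of a factor. The median GC content was 60.3% in both sets.

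Some higher genes were neighbours on a chromosome, and most were not. In the RefSeq order of tested genes, 12 of 14605 neighbouring pairs had both genes higher, and they held 24 of the 282 placed higher genes. They include Col4a1 with Col4a2, Col4a4 with Col4a3, Col6a2 with Col6a1, and Dcn with Lum, which encode small leucine-rich proteoglycans that bind collagen. Kcnj8 with Abcc9, the subunits of a potassium channel of pericytes, and Thbd with Cd93, both of endothelium, were other such pairs. The pairs named so far are of related genes. Other pairs were Arap3 with Pcdh1, Aplnr with Lrrc55, Tgm2 with D630003M21Rik and Cyp19a1 with Gldn. The part of position was not tested.

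Among matrix glycoproteins and proteoglycans, 12 of 23 tested members were higher, against 1.81% of all genes, with a median difference of 0.53. Ltbp4, which holds latent TGF-beta in the matrix, stood at 11.82, 11.55 and 11.81 against 10.71, 10.59 and 10.88. Emilin1, a glycoprotein of elastic fibres, stood at 9.97, 9.91 and 9.92 against 9.21, 8.73 and 8.99. Lum stood at 9.48, 9.68 and 9.38 against 8.58, 8.54 and 8.63, and Dcn at 10.57, 10.48 and 10.79 against 9.90, 9.95 and 9.80. The sides of these 4 genes were well apart, and Emilin1 varied most among the stroma-poor libraries. Frem1, a protein of the epithelial basement membrane from outside these lists, differed by 0.97, and Igfbp7, a secreted binding protein made by vessels, by 1.002.

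Enzymes that fold, cross-link and degrade this matrix were set apart less often than matrix genes, by count: 0 of 13 for folding and cross-linking and 1 of 13 for proteases and inhibitors, with medians of 0.08 and 0.13. Over all genes 1.81% were higher, and the difference between lists was not tested. Pcolce, which helps to trim procollagen, differed by 0.35 without overlap, short of the size needed. Loxl1, a lysyl oxidase, overlapped, with 9.93, 9.88 and 10.05 against 9.40, 9.43 and 10.11. The exception was Mmp2, the gelatinase that cuts collagen fragments, at 10.07, 10.12 and 10.19 against 9.49, 8.85 and 9.27. Timp3, an inhibitor of such proteases, differed by 0.49 with no overlap, just under the size needed.

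**Figure D3:**
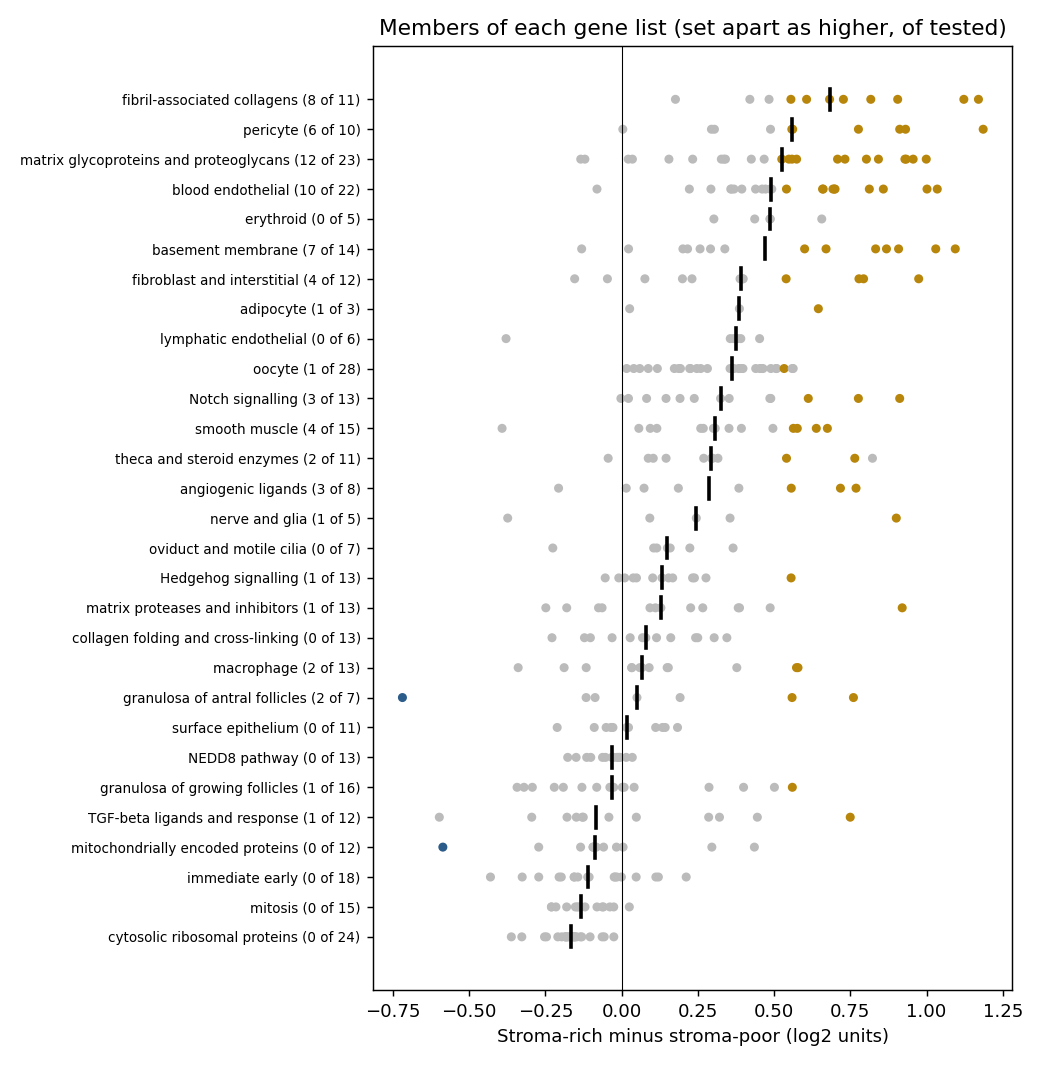
Stroma-rich minus stroma-poor difference (log2 units) of each tested member of 29 gene lists with at least 3 tested members, score genes left out (points: gold higher, blue lower, grey neither; bars: list medians; in brackets, members higher of members tested). Collagens, pericyte, matrix and endothelial lists lie to the right, and ribosomal protein and mitosis lists to the left of 0.

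Fibroblast and interstitial markers were higher in 4 of 12 tested members, against 1.81% of all genes, with a median of 0.39. Pdgfra, the receptor that marks ovarian stroma, stood at 10.08, 10.01 and 10.14 against 9.14, 9.03 and 9.14. Its sides were far apart and tight within, and the libraries of neither side ran from 9.27 to 9.64. Tcf21, a transcription factor of stromal progenitors, differed by 0.79, Cd34 by 0.78 and Thy1 by 0.54. Adcy7, an adenylyl cyclase, was outside these lists and differed by 0.998.

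Smooth muscle markers were higher in 4 of 15 tested members, against 1.81% of all genes, with a median of 0.31. Of the 15, 14 had the higher mean on the stroma-rich side, and Myocd had the lower, with a difference of -0.39. Synm and Flna differed by only 0.06 and 0.09. Myh11, the myosin heavy chain of smooth muscle, stood at 10.68, 10.84 and 10.29 against 9.997, 10.17 and 9.62. Myl9 stood at 10.39, 10.45 and 10.18 against 9.94, 9.73 and 9.44, and Actg2, the actin of visceral muscle, at 8.97, 8.89 and 8.82 against 8.62, 8.59 and 7.77. For Myh11 the lowest stroma-rich value was close to the highest stroma-poor one. Without Uba3 cKO replicate 5, 2 members were counted as higher, and the Actg2 difference of 0.56 was 0.29.

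Pericyte markers had the larger share, 6 of 10 tested members against 1.81% of all genes, with a median of 0.56. Rgs5, a regulator of G protein signals that marks pericytes, stood at 7.82, 7.80 and 7.54 against 6.63, 6.51 and 6.47, a difference of 1.19 (2.27-fold). Abcc9 stood at 7.12, 6.97 and 6.97 against 6.27, 6.07 and 5.93, and its channel partner Kcnj8 at 5.36, 5.27 and 5.17 against 4.90, 4.77 and 4.45. Pdgfrb, the receptor through which endothelium recruits pericytes, stood at 9.45, 9.75 and 9.58 against 9.0002, 8.83 and 8.62. In each of these genes Uba3 cKO replicate 5 was the lowest of the 10 libraries. Enpep, an aminopeptidase found on pericytes and other cells, stood at 9.27, 9.46 and 8.85 against 8.22, 8.36 and 7.61, and was outside the list.

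Blood endothelial markers followed, with 10 of 22 tested members higher beside the 5 score genes and a median of 0.49. Over all genes 1.81% were higher. Eng, a co-receptor for BMP ligands, stood at 9.32, 9.03 and 9.35 against 8.30, 8.14 and 8.26. Tie1, a receptor of the angiopoietin system, stood at 8.09, 7.91 and 7.89 against 7.12, 7.19 and 7.14, and Ptprb, the phosphatase that restrains Tek, at 8.37, 8.02 and 8.004 against 7.23, 7.28 and 7.31. Aplnr, the apelin receptor, stood at 7.59, 7.77 and 7.63 against 6.59, 6.75 and 6.53. Thbd, the thrombin receptor of the vessel wall, differed by 1.03 and Cd93 by 0.97. In all 6 genes the sides did not overlap, and Thbd varied most among the stroma-poor libraries.

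Ligands of vessel growth were higher in 3 of 8 tested members, against 1.81% of all genes, with a median of 0.29. These were Angpt1, which activates Tek, by 0.77, Cxcl12 by 0.72 and Fgf2 by 0.56. Vegfa, Pdgfb and Vegfb differed by only 0.19, 0.07 and 0.02, and Angpt2 went the other way, with -0.21. Notch genes were higher in 3 of 13. Notch1 stood at 7.34, 6.97 and 7.13 against 6.32, 6.51 and 6.28, and its vascular ligand Dll4 at 5.24, 5.21 and 5.08 against 4.61, 4.49 and 4.59. Notch3, the receptor of mural cells, differed by 0.91. Without control replicate 1 or without control replicate 5, 5 Notch genes were counted. Lymphatic markers were set apart in 0 of 6, although 5 of 6 had the higher mean on the stroma-rich side. Prox1, which sets lymphatic identity, differed by 0.45 and Lyve1 by 0.39 (0.23 without Uba3 cKO replicate 4). Reln overlapped, with a difference of -0.38 that was -0.73 without Uba3 cKO replicate 5 and -0.09 without control replicate 5.

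**Figure D4:**
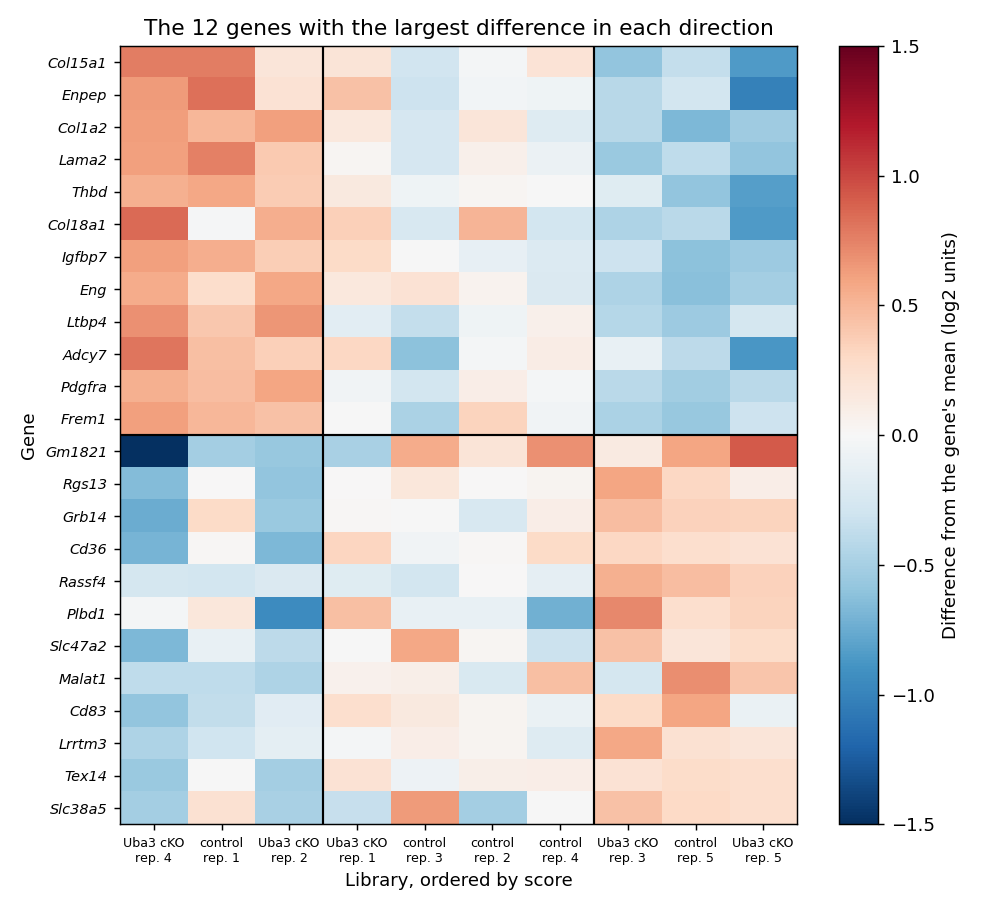
Difference of each gene from its own mean over 10 libraries (colour, log2 units) for 12 genes higher and 12 lower in the stroma-rich libraries. Libraries are ordered by score, with vertical lines at the borders of the sides. The genes have the largest differences among those counted as higher or lower with a symbol and a mean of at least 8. The mean of the libraries of neither side also had to lie between those of the sides, so that placing follows from the choice. Stroma-rich libraries are above the mean for the upper genes except control replicate 1 for Col18a1, Uba3 cKO replicate 4 lies just past the colour scale for Gm1821, and for Grb14 and Cd36 the lowest values are those of Uba3 cKO replicates 4 and 2.

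Theca and steroid genes varied along with the stroma but less evenly. Of 11 tested members beside Cyp17a1, 2 were higher, against 1.81% of all genes, with a median of 0.29. Lhcgr, the receptor for luteinizing hormone, stood at 7.11, 7.58 and 6.84 against 6.72, 6.396 and 6.13. Cyp11a1, which makes pregnenolone from cholesterol, stood at 9.53, 10.40 and 9.23 against 9.499, 8.89 and 8.31. Control replicate 1 was the highest of all libraries for both genes, and the sides overlapped for Cyp11a1 through the 9.499 of Uba3 cKO replicate 3. Aldh1a1, a retinaldehyde dehydrogenase, was also highest in control replicate 1, at 11.998, against 11.36 and 11.21 in the other stroma-rich libraries. Without that library its difference of 0.54 was 0.30.

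The Hedgehog list was set apart once beside its 3 score genes, in 1 of 13 tested members, with a median of 0.13. Over all genes 1.81% were higher. Gli2, a transcription factor of the pathway, differed by 0.24, under the size needed. Ihh, the ligand made by granulosa cells, differed by 0.23 and overlapped, with 12.11, 12.04 and 12.43 against 11.96, 11.66 and 12.27.

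Follicle genes gave a mixed picture. Markers of granulosa cells of growing follicles were higher in 1 of 16 tested members, against 1.81% of all genes, with a median of -0.03. Amh, the hormone of growing follicles, differed by -0.04, but by 0.07 without control replicate 1 and 0.08 without Uba3 cKO replicate 3. Kitl, the ligand for Kit on oocytes and theca precursors, stood at 10.91, 10.38 and 10.65 against 10.16, 10.15 and 9.94. Foxl2, which maintains granulosa identity, differed by 0.40, and Bmpr1b, a BMP receptor, by -0.34. Among 7 markers of antral granulosa cells, 2 were higher and 1 was lower. Cyp19a1, the aromatase, stood at 7.97, 7.95 and 8.14 against 7.47, 7.13 and 7.18, but also at 7.94 in control replicate 4, a library of neither side. Inhba, an activin subunit, stood at 13.27, 13.29 and 13.13 against 12.53, 12.38 and 13.09. The highest stroma-poor value, in Uba3 cKO replicate 5, was close to the lowest stroma-rich one.

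Oocyte markers had the higher mean on the stroma-rich side in 28 of 28 tested members, with a median of 0.36, yet only Khdc3, a subunit of the subcortical maternal complex, was set apart. Zp3, a zona pellucida protein, stood at 12.23, 11.57 and 12.08 against 11.49, 11.91 and 11.16. Gdf9, an oocyte signal to granulosa cells, stood at 12.40, 11.93 and 12.38 against 11.94, 12.29 and 11.89. Control replicate 1 was low for both genes, like the stroma-poor libraries. The level of the whole list was 9.64 ± 0.31 (SD, n = 3) against 9.31 ± 0.23 (SD, n = 3), and 9.72 in the libraries of neither side. Members of this list share the same oocytes, so their common direction is not 28 separate observations. Over all tested genes, 7454 of 15615 had the higher mean on the stroma-rich side, and 1.81% were counted as higher.

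Of the 27 genes lower in the stroma-rich libraries, Gm1821, a predicted gene, had the largest difference. Gm1821 stood at 7.89, 8.90 and 8.84 against 9.54, 10.002 and 10.32. Predicted genes of this kind can share reads with near-identical copies, so its value is uncertain. Rassf4, a Ras association protein, stood at 9.57, 9.56 and 9.62 against 10.37, 10.30 and 10.18, and was flat in the libraries of neither side, from 9.56 to 9.84. Grb14, an adaptor of the insulin receptor, stood at 12.31, 13.35 and 12.49 against 13.52, 13.40 and 13.39. Cd36, a fatty acid and thrombospondin receptor, stood at 9.60, 10.31 and 9.61 against 10.59, 10.54 and 10.50. In Grb14 and Cd36 the lowest values were those of Uba3 cKO replicates 4 and 2, and control replicate 1 lay near the stroma-poor side. Malat1, a long nuclear RNA, stood at 11.55, 11.55 and 11.47 against 11.66, 12.63 and 12.35. Rgs13, Plbd1 and the mitochondrial mt-Nd3 were lower too, by -0.75, -0.70 and -0.59. Without Uba3 cKO replicate 2 the Plbd1 difference was -0.36.

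Dividing-cell and housekeeping lists leaned to the stroma-poor side by small amounts. Of 15 mitosis genes 14 had the lower mean in the stroma-rich libraries, as had 8161 of all 15615 genes. The mitosis median was -0.13, and none was set apart, against 0.173% lower over all genes. Ccnb2, a mitotic cyclin, stood at 10.59, 10.68 and 10.64 against 10.86, 10.76 and 10.99, which did not overlap. All 24 cytosolic ribosomal protein genes had the lower mean, with a median of -0.17, and none was set apart. The level of this whole list overlapped between the sides, as did that of the mitosis list. Members of a list were measured in the same libraries, so a common direction is not 24 separate observations. Rps27 stood at 12.66, 13.17 and 12.67 against 13.25, 13.09 and 13.24, and was higher still, at 13.71, in control replicate 3. Levels of this kind are relative to the rest of the RNA in a library. Of the NEDD8 pathway, 0 of 13 genes were set apart, with a median of -0.03. Nedd8 itself differed by -0.15 and Cul3, a cullin scaffold, by -0.18.

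Immune, blood, fat and epithelial markers were examined for other cells in the libraries. Macrophage genes were higher in 2 of 13 tested members, against 1.81% of all genes, with a median of 0.07. Among them Mrc1, a scavenger receptor, differed by 0.57, whereas Csf1r, at 0.38 (0.21 without Uba3 cKO replicate 5), was under the size needed. Lyz2 overlapped at -0.34, and ran from -0.62 without control replicate 1 to -0.10 without Uba3 cKO replicate 4. The 5 tested erythroid genes were set apart in none and followed control replicate 1. Hba-a1, a globin with a near-identical copy, stood at 9.41, 10.17 and 8.32 against 8.34, 8.87 and 8.72. Fat markers were highest in Uba3 cKO replicate 2: Cfd, an adipocyte protease, stood at 4.95, 4.69 and 7.28 against 5.72, 5.24 and 4.80, and Adipoq, below the filter, at 3.90 in that library and 2.92 to 3.56 in the 9 others. Plin1, a coat protein of lipid droplets, was the 1 fat gene set apart, by 0.65. Oviduct markers were highest in Uba3 cKO replicate 4, with Ovgp1, the oviduct glycoprotein, at 6.10 there and at most 5.19 elsewhere. Surface epithelium genes were set apart in 0 of 11, and Msln, mesothelin, differed by -0.21, or by 0.04 without control replicate 1. Ngfr, a neurotrophin receptor of nerve and stroma, was higher by 0.90 in the nerve list. So the 3 stroma-rich libraries differed from each other in blood, fat and oviduct transcripts, whose part in the differences above was not tested.

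**Figure D5:**
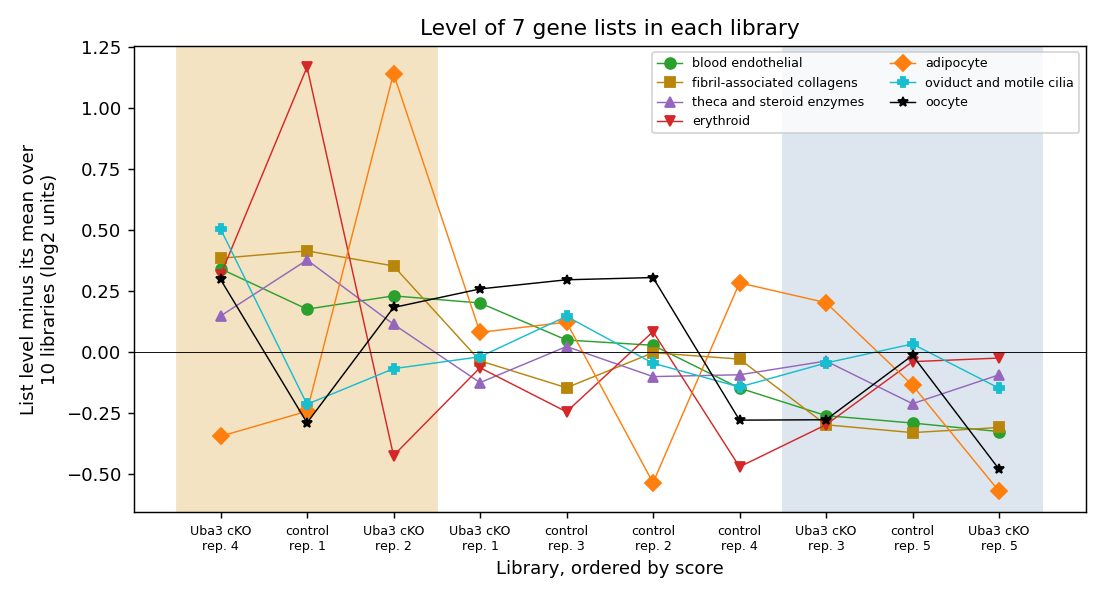
Mean level of 7 gene lists in each library minus the list's mean over 10 libraries (y, log2 units), with libraries ordered by score and bands for the stroma-rich (left) and stroma-poor (right) sides. Collagen and endothelial lists separate the sides, whereas erythroid genes peak in control replicate 1 (1.17), fat genes in Uba3 cKO replicate 2 (1.14) and oviduct genes in Uba3 cKO replicate 4 (0.50).

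Transcript length was compared because it differed between the gene sets. Higher genes had a median longest transcript of 4168 bases and lower genes 2590, against 3248 over all tested genes with a known length. Regressed on log2 transcript length, the deviations of a library had a slope from 0.04 to 0.07 in stroma-rich libraries, from -0.01 to 0.06 in stroma-poor libraries and from -0.18 to 0.01 in the others. The sides overlapped in this slope. Of the libraries of neither side, Uba3 cKO replicate 1 (-0.07) and control replicate 3 (-0.18) lay below both sides. Control replicates 2 and 4 (0.01 each) lay within the stroma-poor range. With each library corrected for its slope, the same 6 libraries were chosen, 295 genes were higher and 20 lower, and 270 of the 283 higher genes were counted again.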

How the data were processed

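Per the labels' protocols, TruSeq libraries from 10 whole mouse ovaries were read by NovaSeq. The submitters' processing notes name fastp, STAR, featureCounts and DESeq2 with build GRCm39, and give neither versions nor roles. The authors deposited normalized log2 values, from -0.21 to 20.19, for 22891 genes; the transform is not named, and genes of low level appear drawn to their mean. Symbols were matched to 22188 identifiers. A filter on the mean level (3.32 or more, which is 10 unlogged) kept 15629 genes, and 15615 without the score genes.

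Library score, sides and calls are as the report defines them (Python 3.11.15, pandas 2.3.3). The genotype test used limma 3.58.1 (R 4.3.3) allowing for a mean-variance trend, with no covariate and Benjamini-Hochberg adjustment. The scripts were tested on simulated data. Lengths came from GENCODE M21. Of 30 gene lists with 420 entries, 9 members were not found. The lists of lymphocytes and mast cells (1 tested member, difference 0.12), TGF-beta (1 of 12 higher, median -0.08), immediate early genes (0 of 18, median -0.11) and mitochondrially encoded proteins (0 of 12 higher, 1 lower, median -0.09) are given here only. Named genes were the score genes, Uba3, the 12 largest called differences in each direction with a mean of at least 8, and up to 4 members of each list. For the 12 in each direction, a symbol was required, and a mean of the libraries of neither side between those of the sides. Not all named genes are printed, and others were chosen after their values were seen (Dcn, Kcnj8, Cd93, Gdf9, Zp3, Amh, Adipoq, Col4a2 to Col4a6). Some list members are not reported here. Libraries, members and lists were chosen with earlier results of these data known.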

Additional observations from a re-analysis of the deposited data

Results flagged for a closer look

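In the labelled groups of 5, a value was looked at again where its gap to the nearest other exceeded 0.710 of the group's range. This marked 15 of 290 groups checked, and chance marks about 1 in 20. Control replicate 1 stood above the other controls in the smooth muscle list (9.84, next 9.47), Myh11 (10.84), Enpep (9.46), Aldh1a1 (12) and Angpt1 (7.07). Uba3 cKO replicate 4 stood above its group in the oviduct list (5.14, next 4.62), Ovgp1 (6.10) and Dnah5 (4.92), and Uba3 cKO replicate 2 in Adipoq (3.90). Among stroma-poor libraries, Uba3 cKO replicate 5 stood below its group in Acta2 (11.36) and Csf1r (5.25), and control replicate 5 in Thy1 (6.68). Of the libraries of neither side, control replicate 3 stood above the other controls in the cytosolic ribosomal protein list (14.94, next 14.56), and control replicate 2 in Ddx4 (7.51) and Sohlh1 (6.68), genes of early oocytes.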

How the results depend on the processing

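The same 6 libraries were chosen with score genes scaled to unit SD, with their median, centred within genotype, over 9 or 5 genes, with library medians aligned (259 higher and 33 lower) and after the length correction. With 2 libraries on each side 389 genes were higher and 48 lower, and with 4 on each side 129 and 5. Fewer or more genes follow from the size asked: 12 and 1 at a difference of at least 1, and 1617 and 1524 from no overlap alone. Leaving out 1 library, higher genes ran from 274 to 450 and lower genes from 26 to 136; lower genes were 136 without control replicate 1, 61 without Uba3 cKO replicate 5 and 53 without Uba3 cKO replicate 3. With the 9-gene or 5-gene score, aligned medians, length correction or 1 library left out, no named gene counted as higher or lower changed direction. Directions of single genes with 2 or 4 libraries on each side were not examined. Differences of genes not so counted often moved by over 1.5 times when 1 library was left out. Those of some counted genes did too, such as Plbd1, Actg2 and Aldh1a1. Beside those given above, Cfd turned to -0.44 without Uba3 cKO replicate 2 and Ovgp1 to -0.35 without Uba3 cKO replicate 4. Ihh (0.23) ran from 0.08 to 0.39, Loxl1 from 0.18 to 0.53, Cyp11a1 from 0.49 to 1.12, Hba-a1 from 0.22 to 1.14, Gdf9 from 0.11 to 0.35, Zp3 down to 0.26 and Cul3 from -0.29 to -0.10. The adipocyte median turned to -0.44 without Uba3 cKO replicate 2, and the antral granulosa median to -0.17 without control replicate 1. In the genotype comparison, limma called 0 genes in 17 of 17 alternative settings, with 133 to 604 at an unadjusted p under 0.05. With the replicate block 0 genes were called, with 311 at an unadjusted p under 0.05; deviations of libraries with the same number had correlations from -0.27 to 0.28, so the numbers were not taken as a pairing. The Uba3 difference of 0.0032 turned to -0.0020 with library medians aligned and to -0.048 with library weights, and ran from -0.056 to 0.066 leaving out 1 library. Depth is unknown, and differences of genes of low level may be understated.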

Other observations

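Gene families taken whole by symbol, a choice made after values were seen, are given as values. Of 10 tested laminin chains, which build the basement membrane, 3 were higher in the stroma-rich libraries and none was lower, with a median difference of 0.27. Of 22 tested genes with symbols starting Itga or Itgb, 3 were higher, with a median of 0.09. These symbols cover integrins, the cell-surface receptors for laminin, collagen and fibronectin, and may take in other genes. Of 10 tested Wnt ligands 3 were higher, with a median of 0.17. Over all tested genes 283 of 15615 were higher.

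Of the neighbouring gene pairs in which both were higher, the report leaves some without values. Gucy1a1 and Gucy1b1, the subunits of the nitric oxide receptor of smooth muscle, differed by 0.69 and 0.52. Prelp and Fmod, small leucine-rich proteoglycans of the matrix, differed by 0.63 and 0.74.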
